A study of Mus musculus with 6 samples.

Results

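The forkhead factor family was described in 1 ATAC-seq library of untreated E14 mouse embryonic stem cells. Its members were chosen by name and biotype, as all protein-coding RefSeq genes with a symbol of Fox, a letter from a to s and a number. They number 44 of 21883 protein-coding genes on chromosomes 1 to 19, X and Y, and 371 of the library's 77629 peaks lay in their zones. Peaks were read in 3 zones of each member: within 1 kb of either annotated end of the gene (an end peak), in the rest of the gene body, and elsewhere within 50 kb of the ends. ATAC-seq marks open chromatin, the DNA into which the Tn5 transposase can insert sequencing adapters.

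The E14 cells carried an NSD1-dTAG knock-in, in which the histone methyltransferase NSD1 is fused to a tag that the small molecule dTAG-13 directs to degradation. They grew in 2i/LIF medium, which holds an inhibitor of MEK, one of GSK3 and the cytokine LIF, and they received no dTAG-13 (the 0 h sample). The 5 further samples of the series carry the same knock-in. Of these, 3 are stem cells kept in 500 nM dTAG-13 for 1, 6 or 24 h, and 2 are day 6 embryoid bodies, one with dTAG-13 and one without it. They were not analysed here, so nothing below is an effect of NSD1 loss, and how many clones stand behind the line is not stated in these sources. There are no replicates, and no test between groups was possible.

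Forkhead factors bind DNA through a winged-helix domain, the forkhead, and several of them can bind their sites in closed chromatin and open it. Family members pattern most organs of the embryo, and many of them are silent or low in pluripotent cells. A few serve in every cell, in the cell cycle, metabolism or the response to insulin, and Foxd3 and Foxh1 act in the early epiblast. Many of the lineage members are short genes with a single coding exon and a CpG-rich surrounding.

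Over the whole library the median peak was 487 bp wide, and the median summit pileup was 23. The summit pileup is how many reads or fragments lie over the highest point of a peak, and its intervals are exact Poisson 95% intervals that cover counting error only. Fold is the authors' enrichment of that pileup over local background, and is used only to describe peaks within this list. Of the marker genes of naive pluripotent cells, 8 of 10 had an end peak, against 66.5% of all protein-coding genes, and the median pileup was 116.5. Dppa3 and Esrrb were the 2 without. Esrrb had a body peak with a pileup of 179 and Dppa3 had none. Among 8 fibroblast and feeder genes 5 had one, 62.5% and so near that share, with a median pileup of 33. They were Snai2 (80), Col1a1 (38), Twist1 (33), Thy1 (22) and Col1a2 (7). Acta2, Col3a1 and Pdgfra had no end peak, but Pdgfra had body peaks up to 58 and Acta2 one of 13. Among 5 blood genes Klf1 (135) and Spi1 (41) had one, and Ptprc and Cd8a had no peak at the gene.

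Nearly every forkhead gene had an accessible end in the stem cells, and the peaks there were mostly low. An end peak was present at 39 of 44 members (88.6%), against 66.5% of all protein-coding genes. The median pileup of the tallest one was 45 over the 39 members (quartiles 35.5 and 68.0, range 16 to 137), against 66.0 over the 14548 protein-coding genes with such a peak. Of the 39, 28 lay below that all-gene median and 11 above it. A pileup of at least 20 was reached at an end of 36 of 44 members, against 60.4% of all genes. By fold the medians were 8.25 for forkhead genes and 11.0 for all genes. A body peak was present at 19 members (43.2%), against 46.3% of all genes, a share near the background. A peak elsewhere within 50 kb was present at 42 members, against 89.3% of all genes, the exceptions being Foxp1 and Foxq1. No member lacked a peak in every zone, as 7.32% of all genes did.

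The 5 members without an end peak were Foxa1, Foxi1, Foxp3, Foxr2 and Foxs1. Foxa1 and Foxr2 had a peak in the gene body, so Foxi1, Foxp3 and Foxs1 alone had none at the gene. Foxp3 and Foxr2 are X-linked, and Foxo4, the other X-linked member, had one. On X, 47.6% of all protein-coding genes had an end peak (median pileup 41), and the part of X linkage in the result for these members was not tested.

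**Figure D1:**
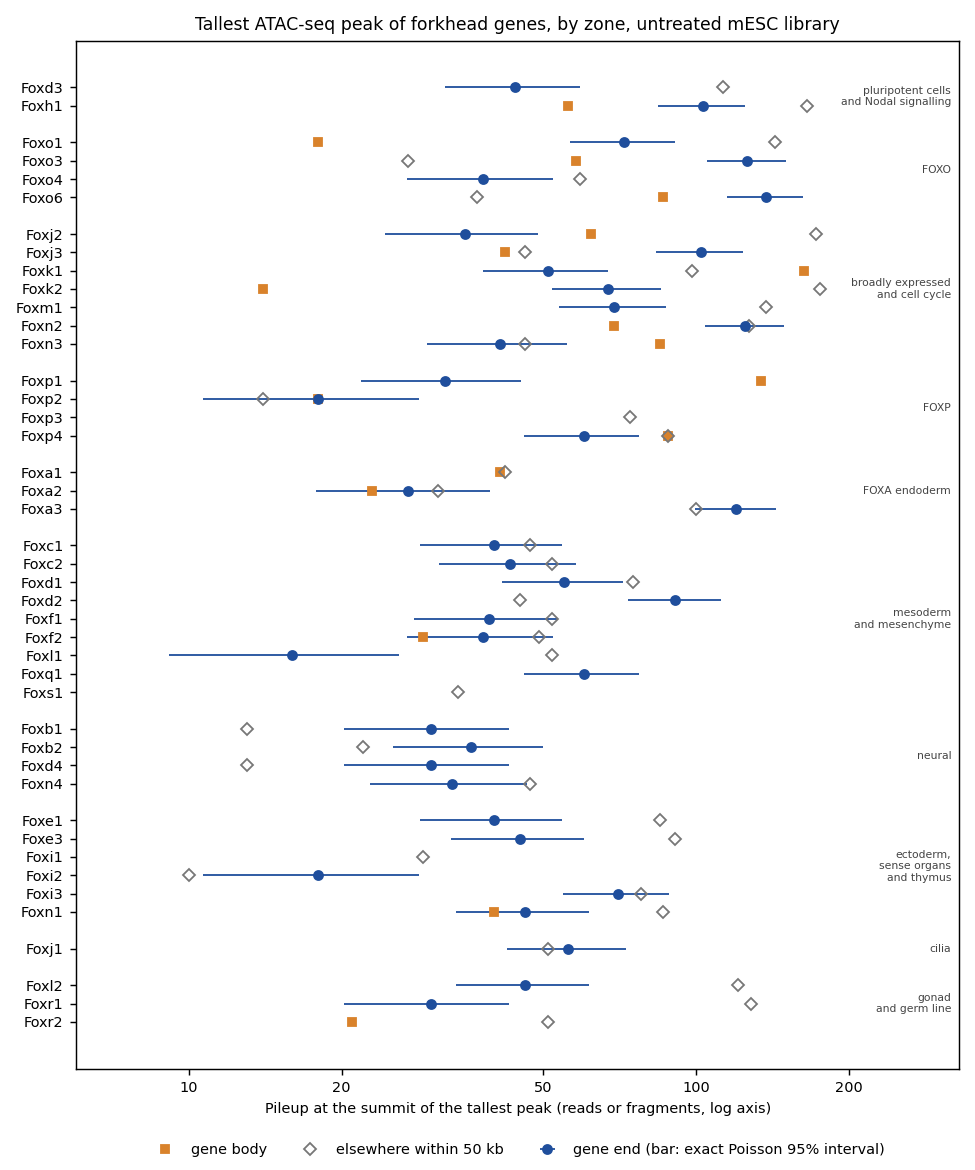
Summit pileup of the tallest peak of the forkhead genes drawn (x axis, log scale), with genes in rows by role; circles are end peaks with exact Poisson 95% intervals, squares body peaks and open diamonds peaks elsewhere within 50 kb. End pileups run from 16 at Foxl1 to 137 at Foxo6, and 5 genes have no circle.

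Members differed widely in the CpG content of their starts. RefSeq promoter sequences of GRCm38.p6, from 250 bases before to 50 after a start, were at hand for 28 of 44 members, with 33 starts. A peak overlapped 23 of the 33, against 60.8% of 21262 starts of protein-coding genes. The CpG ratio is the number of CG steps over that expected from the C and G content, and its median was 0.77 at the 23 forkhead starts with a peak and 0.50 at the 10 without. The medians over all protein-coding starts were 0.77 with a peak and 0.19 without. With a CpG ratio of 0.6 or more, 18 of 21 forkhead starts had a peak, against 95.8% of all such starts. Between 0.3 and 0.6, 2 of 6 forkhead starts had one, against 57.6%, and under 0.3, 3 of 6 had one, against 10.4%. Those 3 with a peak under 0.3 were Foxi2, Foxr2 and an internal start of Foxp1. The 3 of 0.6 or more without a peak were Foxa1, Foxd4 and 1 start of Foxa2.

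Upstream sequences of 5 starts show this range. They are the 250 bases before the start on the gene's own strand in GRCm38.p6, credited to RefSeq, with every CG step in capitals. Foxi3 and Foxi1 are a pair of one subfamily with and without a peak, and Foxd3 acts in pluripotent cells. Foxa1 is CpG-rich without a peak over its listed start, which lies inside the gene, and Foxr2 is CpG-poor with one.
Foxd3 (chr4:99656049-99656298, plus strand): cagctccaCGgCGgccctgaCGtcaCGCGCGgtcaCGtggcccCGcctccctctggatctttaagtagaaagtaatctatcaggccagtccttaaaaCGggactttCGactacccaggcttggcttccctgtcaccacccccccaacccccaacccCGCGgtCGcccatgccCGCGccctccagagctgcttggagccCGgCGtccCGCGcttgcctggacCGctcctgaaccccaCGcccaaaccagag
Foxi3 (chr6:70956356-70956605, plus strand): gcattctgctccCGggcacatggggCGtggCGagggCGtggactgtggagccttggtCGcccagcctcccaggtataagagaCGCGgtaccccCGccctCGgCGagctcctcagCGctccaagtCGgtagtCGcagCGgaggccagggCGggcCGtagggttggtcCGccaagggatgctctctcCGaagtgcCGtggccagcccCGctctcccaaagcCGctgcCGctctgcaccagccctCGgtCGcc
Foxi1 (chr11:34208090-34208339, minus strand): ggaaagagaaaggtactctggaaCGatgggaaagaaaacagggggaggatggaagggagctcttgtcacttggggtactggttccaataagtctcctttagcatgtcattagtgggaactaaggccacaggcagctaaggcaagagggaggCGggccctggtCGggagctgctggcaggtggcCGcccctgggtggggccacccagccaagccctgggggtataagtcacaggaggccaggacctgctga
Foxa1 (chr12:57546112-57546361, minus strand): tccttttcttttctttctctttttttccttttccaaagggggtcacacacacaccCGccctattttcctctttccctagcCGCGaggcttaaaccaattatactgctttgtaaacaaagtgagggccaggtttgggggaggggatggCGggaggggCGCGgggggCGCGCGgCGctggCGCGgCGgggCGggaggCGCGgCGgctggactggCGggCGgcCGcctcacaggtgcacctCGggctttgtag
Foxr2 (chrX:153118538-153118787, plus strand): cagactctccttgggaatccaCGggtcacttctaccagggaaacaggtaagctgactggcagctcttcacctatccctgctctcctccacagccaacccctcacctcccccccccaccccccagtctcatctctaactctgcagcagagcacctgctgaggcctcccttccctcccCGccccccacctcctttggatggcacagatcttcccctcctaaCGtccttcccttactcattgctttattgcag
These 250 bases hold 24 CG steps at Foxi3, 21 each at Foxd3 and Foxa1, 4 at Foxi1 and 3 at Foxr2. A peak with a pileup of 70 covered the Foxi3 start, one of 39 the Foxd3 start and one of 21 the Foxr2 start.

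Short sequence motifs were searched on both strands of the 300 bases at each start. The GC box CCGCCC, which itself holds a CG step, was in 24 of 33 forkhead starts (72.7%), against 46.2% of all protein-coding starts, and in 19 of the 23 forkhead starts with a peak, against 68.6% of all starts with one. CCAAT was in 15 forkhead starts (45.5%), against 38.2% of all. TATAAA was in 3, at Foxa2, Foxa3 and Foxp3, a share of 9.09% against 12.6% of all. The forkhead core TGTTTAC was in that of Foxa1 alone among the members, and in 3.01% of all starts. TGTTTGC was in those of Foxj3 and Foxp1, against 4.58% of all, and the E-box CACGTG in that of Foxd3, against 7.84%. TGTTTAC and TGTTTGC differ in 1 letter, so neither contains the other, and a match describes these letters, not a binding site.

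Foxd3 and Foxh1, the members that act in the epiblast, had end pileups of 44 and 103, against an all-gene median of 66.0. Both had some taller peaks around them, which at Foxh1 lay at ends of other protein-coding genes. Foxd3, a repressor needed to keep the epiblast and stem cell cultures, had 2 end peaks. That over its start reached a pileup of 39 at chr4:99655884-99656552. That further into the gene reached 44 (31.97 to 59.1) at chr4:99657313-99658072. Both were lower than the peaks of 113, 105, 74, 51 and 45 around the gene. The intervals of those at 51 and 45 overlapped those of both end peaks. In all, 8 peaks lay around the gene, and none of the 8 lay at the end of another protein-coding gene. The tallest reached 113 at chr4:99635732-99637239 with a fold of 10.6, its nearest edge 19060 bp outside the gene on the side of its start. Another reached 105 with a fold of 14.7, 14.2 kb out on the same side, and one on the far side reached 74, 11.7 kb out. The folds of the Foxd3 end peaks were 4.42 at the start and 4.71 further in.

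Foxh1, the partner through which Nodal signals carried by SMAD proteins reach DNA, had an end pileup of 103 (84.1 to 125) at chr15:76671288-76672012. That peak was shared with an end of Ppp1r16a. Its body held a peak of 56. Foxh1 had the most peaks elsewhere of any member, 15, of which 8 lay at ends of other protein-coding genes. The tallest of these, 165, lay at the ends of Cyhr1 and Kifc2.

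All 4 FOXO genes had an end peak, against 66.5% of all protein-coding genes, and their median pileup was 99. FOXO proteins are kept out of the nucleus by AKT when insulin and growth factor signals are active. Foxo6, best known from brain, had the tallest end peak of the family, 137 (115 to 162) at chr4:120287248-120288200, at percentile 90.2 of all genes with one. Its body held 2 peaks, of 86 and 73. Foxo3 followed with 126 (104.96 to 150.02) at chr10:42276578-42278468, a peak 1891 bp wide whose summit lay 1.44 kb upstream of the listed start, beyond the 1 kb window. Counting only peaks with their summit in the window, the end pileup of Foxo3 was 44 and it no longer followed Foxo6. The values of Foxo6, Foxo1 and Foxo4 stayed at 137, 72 and 38, so the median of 99 does not hold under that rule. Foxo3 also had 11 body peaks, of which the tallest reached 58. Foxo1, the main FOXO factor of the insulin response in liver, had a pileup of 72 (56.3 to 90.7) in a peak 2670 bp wide, chr3:52267704-52270373. A peak of 143 with a fold of 18.1 lay 14.0 kb outside Foxo1 and at no protein-coding gene end. X-linked Foxo4 had 38 at one end and 29 at the other, the lowest of the 4.

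The 7 broadly expressed and cell cycle members all had an end peak, against 66.5% of all protein-coding genes. Their medians were 67 in pileup and 10.5 in fold. Foxn2 was the tallest with 125 (104 to 149) at chr17:88440014-88442035, a peak 2022 bp wide. Foxj3 had 102 (83.2 to 124), in a peak shared with an end of Frg2f1. Foxm1, which drives genes of mitosis, had 69 (53.7 to 87.3), shared with an end of Rhno1. Foxk2 had 67 and Foxk1 51 (37.97 to 67.1; 98 with windows of 2500 bp), and both encode partners of the deubiquitinase BAP1. The lowest were Foxn3 with 41 and Foxj2 with 35 (24.4 to 48.7), whose intervals overlap those of Foxk1. All but Foxj3 had a taller peak away from their ends, at Foxn2 by little (127 against 125) and at Foxm1 with 137, at ends of Rhno1 and Tulp3. In the body of Foxk1 a peak reached 163 at chr5:142440115-142441134, with a fold of 11.7. Around Foxj2 one reached 172 at chr6:122810613-122811948, 9.14 kb outside and at no protein-coding gene end, and around Foxk2 one of 175 lay at chr11:121236575-121237711, at an end of Narf.

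The FOXP genes, which act in brain, lung and lymphocytes, had an end peak at 3 of 4 members, with pileups of 18 to 60. Foxp4 had 60 (45.8 to 77.2), or 88 with windows of 2500 bp, and body peaks up to 88. Foxp1 had 32 (21.9 to 45.2), or 69 where listed starts were taken as the only ends. Foxp2, known for its part in vocal learning, had 18 (10.7 to 28.4). The peak of Foxp2 was nonetheless 1756 bp wide. Foxp3, the regulator of regulatory T cells, had no peak at its ends or in its body at this depth, and none over its 2 listed starts. The tallest peak around it, 74, lay at an end of Ppp1r3f.

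Among the FOXA factors of endoderm the 3 genes differed. Foxa3, active in liver and gut, had an end pileup of 120 (99.5 to 143) at chr7:19023414-19025094, but that peak was shared with an end of Sympk. Foxa2, needed for node, notochord and endoderm, had 27 (17.8 to 39.3), over 1 of its 3 listed starts. Foxa1 had none at its ends, and a body peak of 41 at chr12:57542160-57543409. Outside Foxa1, peaks with their nearest edge 1361 bp and 1358 bp from an end had pileups of 38 and 18. The body peak lay 1532 bp from an end, and with windows of 2500 bp it counted as the tallest end peak of Foxa1.

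In mesoderm and mesenchyme 8 of 9 genes had an end peak (88.9%), against 66.5% of all protein-coding genes. Their medians were 41.5 in pileup and 1799.5 bp in width. Foxd2, expressed in paraxial mesoderm and kidney, was the tallest with 91 (73.3 to 112). Foxq1, the gene of the satin coat mutation, had 60, but 20 with windows of 500 bp, and Foxd1, a gene of the kidney stroma, had 55. The genes of vessels, eye and skeleton Foxc1 and Foxc2 had 40 and 43, and Foxf1 and Foxf2 of visceral mesoderm had 39 and 38. These 4 values lie within one another's intervals (26.9 to 57.9 over the 4). Foxl1, of gut mesenchyme, had 16 (9.15 to 25.98), the lowest of the family, with its nearest edge 654 bp inside the gene. With windows of 2500 bp its end pileup was 50. Foxs1 had no peak at its ends, and its body is covered by the end windows.

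The 5 neural genes all had an end peak, against 66.5% of all protein-coding genes, and their median pileup was 33. Foxb2, Foxn4, Foxb1 and Foxd4 had 36, 33, 30 and 30, all below the family median of 45 and with overlapping intervals (20.2 to 49.8 over the 4). Foxb1 of the hypothalamus had the widest peak of the family, 2680 bp at chr9:69758564-69761243. Foxb2 had 4 separate end peaks, of 36, 21, 19 and 19.

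In the list of ectoderm, sense organs and thymus 5 of 6 had an end peak (83.3%), against 66.5% of all protein-coding genes. Their median pileup was 45. Foxi3 of the placodes and teeth had 70 (54.6 to 88.4), Foxi2 18 (10.7 to 28.4), and Foxi1 of the inner ear none. The 3 genes of this subfamily thus ranged from above the all-gene median to no peak. Foxn1, the nude gene of thymus and hair, had 46 at the end away from its listed start, with no peak over the start itself. Foxe1 of the thyroid had 40, and Foxe3 of the lens had 45. Foxj1, the regulator of motile cilia, had 56 at one end, shared with Rnf157, and 51 at the other. Of the gonad and germ line genes, the ovarian factor Foxl2 had 46 (33.7 to 61.4) and Foxr1 had 30. Foxr2 had no end peak, but its body peak of 21, at chrX:153118504-153119477, covered its listed start. The nearest edge of that peak lay 3923 bp inside the annotated gene.

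The peaks of the forkhead genes were low but wide, and in 13 of 23 short genes they lay over at least 40% of the gene itself. The tallest end peak had a median width of 1266 bp over the 39 members, against 897 bp over all genes with one. It was 1.5 kb or wider at 14 of the 39 (35.9%), against 8.48% of all. The widest belonged to Foxb1, Foxo1 (2670 bp), Foxe1 (2663 bp) and Foxl2 (2632 bp), with pileups of 30, 72, 40 and 46. The widest end peak of any gene was 3092 bp. Of the short members up to 6 kb, 9 of 21 had such a wide peak, against 9.82% of all genes of that length with an end peak. Of the members over 6 kb, 5 of 18 had one, against 991 of 12074 genes over 6 kb. The limits of 1.5 kb, 6 kb, 50 kb and 40% were chosen after values were seen.

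**Figure D2:**
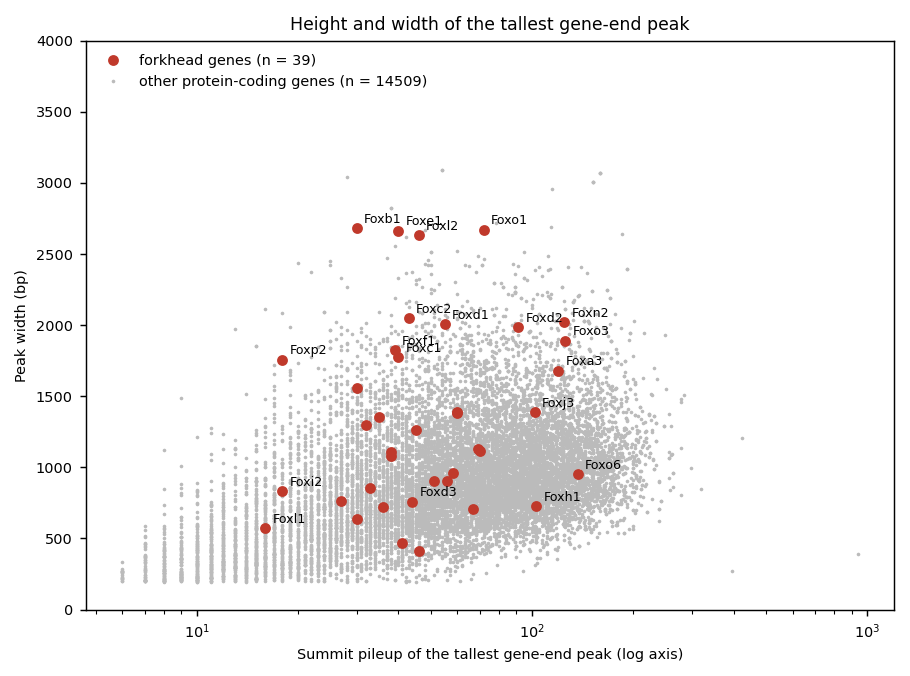
Summit pileup (x axis, log scale) and width in bp (y axis) of the tallest end peak, for 39 forkhead genes (large points) and the other protein-coding genes with one (small points). The peaks of Foxb1, Foxe1, Foxl2 and Foxo1 are 2632 to 2680 bp wide with pileups of 30 to 72.

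Of the 44 members 23 are at most 6 kb long, and these had end peaks in 21 cases (91.3%), against 43.4% of all protein-coding genes of that length. Without olfactory and vomeronasal receptors, many of which are short, the share of such genes was 55.4%. A body peak was present at 4 of the 23, against 4.68% of all genes up to 6 kb, and at 15 of the 21 longer members, against 61.0% of all genes over 6 kb. Peaks covered a median of 43.8% of the length of the 23 members. At 13 of the 23 they covered at least 40% of the gene, against 7.30% of all genes up to 6 kb and 9.30% of those without the receptors. Among genes up to 6 kb with an end peak the share was 13 of 21 members, against 16.8% of all. Foxe1 was covered over 92.4% of its 2.13 kb, Foxe3 over 77.9% and Foxd4 over 75.02%. Foxb1, Foxl2, Foxd1 and Foxc2 were covered over 73.6%, 71.8%, 71.3% and 71.3%. At the other extreme were Foxf1 (7.75%) and Foxj1 (6.40%), whose peaks lay mostly outside the gene, and Foxi1 and Foxs1 with 0. Among the 21 members over 6 kb the highest cover was 18.6%, at Foxo4. There, 18 of 21 had an end peak (85.7%), against 74.6% of all genes over 6 kb.

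**Figure D3:**
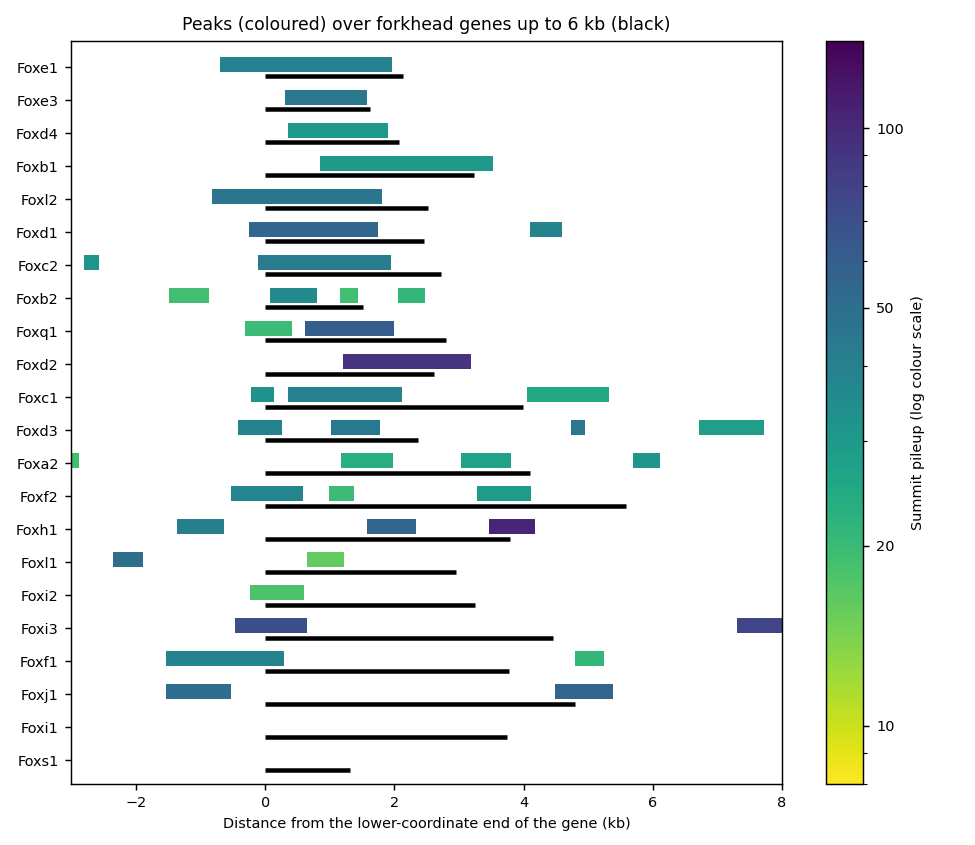
Peaks (coloured bars, darker for a higher summit pileup on a log colour scale) and gene spans (black) of forkhead genes up to 6 kb, by distance in kb from the lower-coordinate end, ordered by the share of the gene under peaks. Foxe1 at the top is covered over 92.4% of its length, and Foxi1 and Foxs1 at the bottom have no peak in the span drawn.

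The long members differed in how many peaks their bodies held. The 8 members over 50 kb all had a body peak, and 13.9% of all protein-coding genes of that length had none. Foxp4 had 13.9 body peaks per 100 kb and Foxo3 11.6, against a median of 2.38 (quartiles 1.00 and 5.06) over 4944 genes over 50 kb. Foxk1 had 8.26, Foxo1 6.11 and Foxn3 3.48 per 100 kb. The rest lay near the all-gene median or under it, Foxp1 with 2.68, Foxj3 with 2.24 and Foxp2 with 0.18. Foxp1 and Foxp2 are of like length, 597 kb and 541 kb, and held 16 body peaks and 1. The tallest body peak of Foxp1 reached 134 at chr6:99378764-99379622 with a fold of 15.2, over none of its listed starts. A peak covered each of the 3 listed starts of Foxp1, with pileups of 32 at the outermost, 17 at the next and 69 at the innermost. In Foxn3 2 body peaks, of 85 at chr12:99412146-99413193 and 84 at an end of Gm51999, were more than 2 times as tall as that at its end. A body peak at least 2 times as tall as the end peak was found at these 3 members, Foxk1, Foxn3 and Foxp1, of 39, against 5.90% of all genes.

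**Figure D4:**
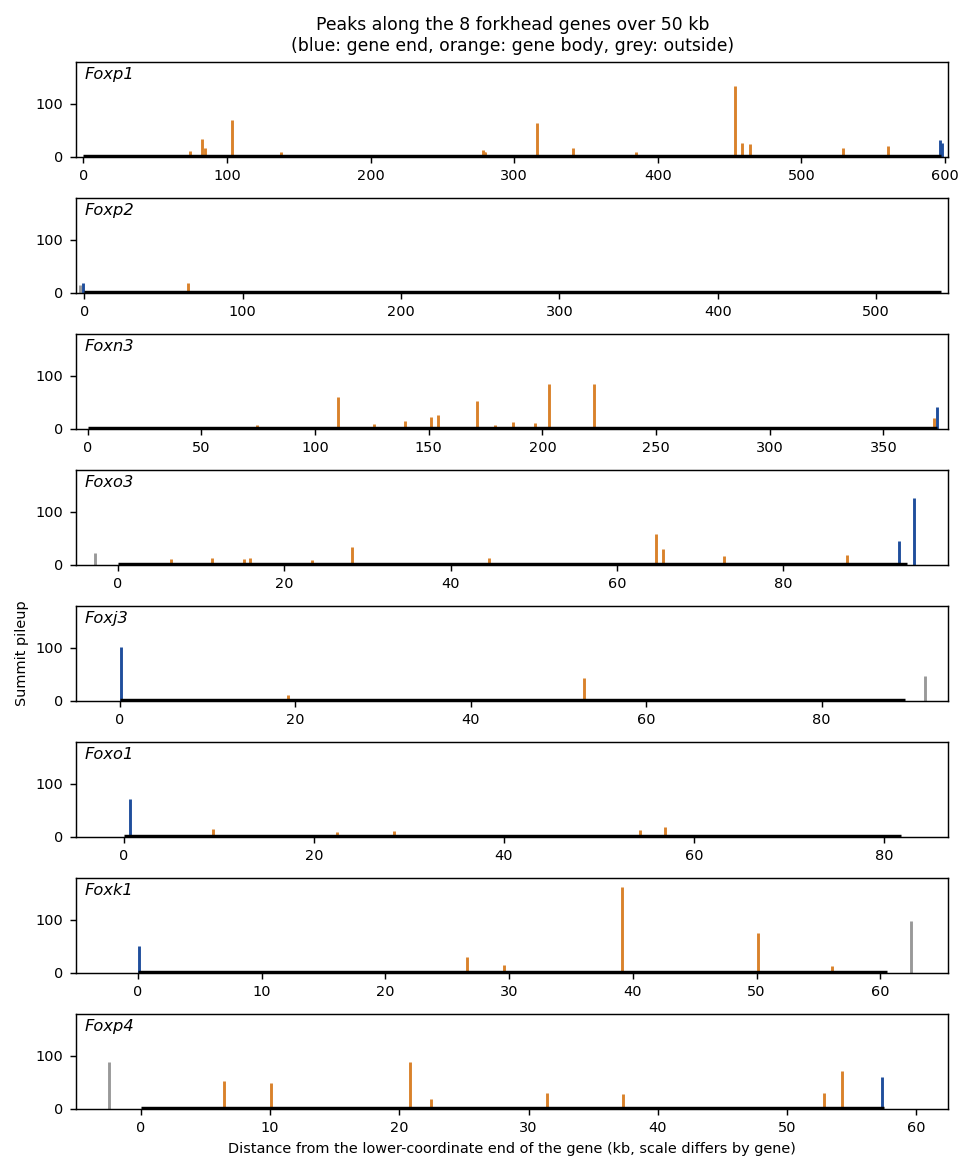
Summit pileup (y axis) of peaks along the 8 forkhead genes over 50 kb, by distance in kb from the lower-coordinate end, with a distance scale of its own for each gene; blue lines are end peaks, orange lines body peaks and grey lines peaks outside. Foxp1 holds 16 body peaks up to 134 and Foxp2, of like length, holds 1 of 18.

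Several members are neighbours, and 10 peaks counted as elsewhere within 50 kb for more than 1 member. Among these were the end peaks of Foxf1, Foxc2 and Foxl1. Foxf1, Foxc2 and Foxl1 lie within 46.3 kb of chromosome 8, a span with 9 peaks, 3 of them at member ends and 6 between. The tallest between them, 52 at chr8:121107975-121108675, lay at an end of Mthfsd, and it exceeded all 3 end peaks. Beside Foxl1 a peak of 50 with a fold of 11.8 lay with its nearest edge 1892 bp outside the gene, which itself had 16. Foxq1, Foxf2 and Foxc1 are spread over 252 kb of chromosome 13 with 16 peaks, 6 at member ends, 1 in a body and 9 between. The tallest between them reached 49 and lay at no protein-coding gene end, and Foxq1 had no peak elsewhere within 50 kb. Foxd2 and Foxe3 lie within 19.8 kb of chromosome 4 and had 1 end peak each in that span, with none between. No peak was an end peak of more than 1 member, but over all zones 12 peaks counted for more than 1 member. The end peaks of Foxd2 and Foxe3, for instance, each lay elsewhere within 50 kb of the other gene.

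**Figure D5:**
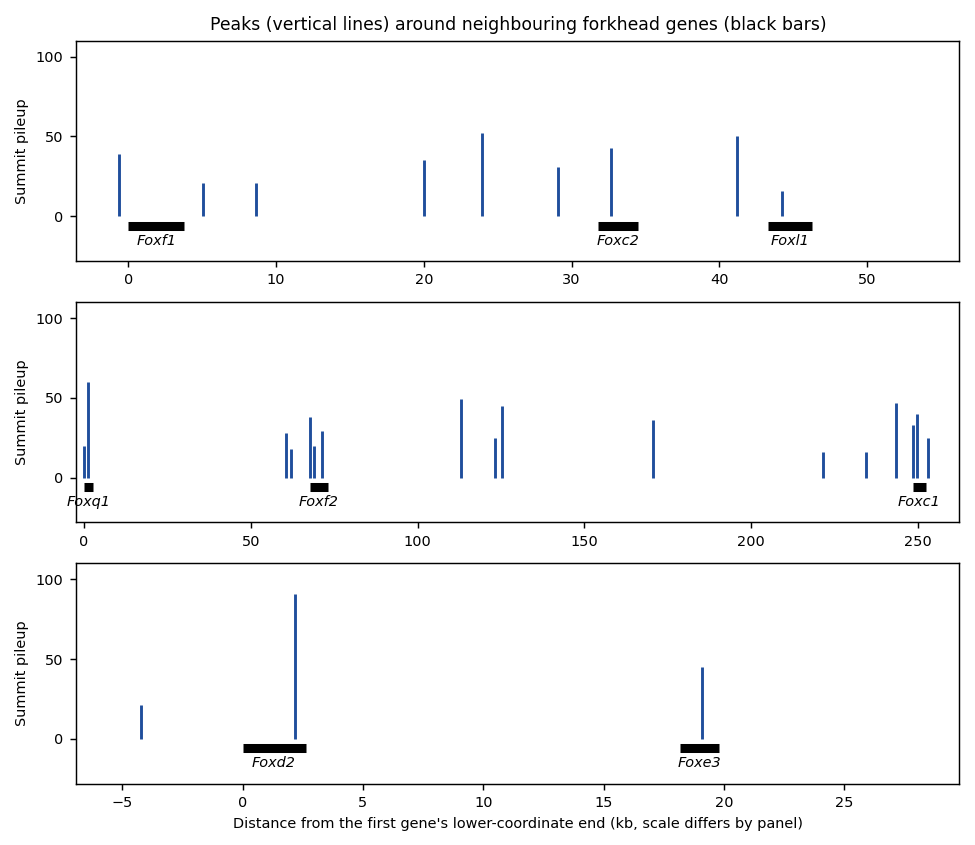
Summit pileup (y axis) of peaks around 3 sets of neighbouring forkhead genes (black bars), by distance in kb from the first gene's lower-coordinate end, with a distance scale of its own for each panel. Peaks around Foxf1, Foxc2 and Foxl1 reach 52, those around Foxq1, Foxf2 and Foxc1 reach 60 at Foxq1, and Foxd2 has the tallest of the 3 sets at 91.

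Around the members 241 peaks lay elsewhere within 50 kb, of which 64 were at ends of other protein-coding genes. The median number per member was 5, the same as over all protein-coding genes. For members it was 3 at a pileup of at least 20 or a radius of 20 kb, and 9 with a radius of 100 kb. Foxh1 with 15, Foxr1 with 13, and Foxm1 and Foxn4 with 12 each had the most. At Foxr1 8 of the 13 lay at ends of other protein-coding genes, and at Foxm1 3 of 12. At Foxn4, a gene of retinal progenitors, none of the 12 did, and their pileups reached 47. A peak outside at least 2 times as tall as the end peak was found at 8 of 39 members, against 27.3% of all genes, so the family was not above the background. These were Foxd3, Foxe1, Foxe3, Foxj2, Foxk2, Foxl1, Foxl2 and Foxr1. That of Foxe3 was the end peak of Foxd2, and those of Foxk2, Foxl1, Foxl2 and Foxr1 lay at ends of Narf, Mthfsd, Faim and Slc37a4. The tallest of these around Foxl2 reached 121 at chr9:98985966-98986924, and that around Foxr1 128 at chr9:44396560-44397464. Those of Foxd3, Foxe1 and Foxj2 lay at no protein-coding gene end. Around Foxe1 it reached 85 with a fold of 14.5 at chr4:46389054-46389858, 43.4 kb outside the gene.

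The 1 kb limit of the end windows decided some of these counts. Just inside it were the end peaks of Foxn1, with its nearest edge 871 bp from the end and a pileup of 46, and Foxl1, at 654 bp and 16. Just outside were peaks of Foxf1 at 1035 bp (21), Foxn3 at 1109 bp (20) and Foxa2 at 1176 bp (23), and each of these genes also had an end peak. Foxa1, with peaks from 1358 bp, was the single member that gained an end peak with windows of 2500 bp.

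Other families of lineage factors had values on either side of those of the forkhead genes, and no test was made of the differences. An end peak was present at 39 of 44 forkhead genes, at 19 of 19 Sox genes, at 7 of 9 Pax genes and at 4 of 6 GATA genes. The share over all protein-coding genes was 66.5%, to which GATA (66.7%) was near, and Pax stood at 77.8%. The median end pileups were 45 for forkhead, 46 for Sox, 25 for Pax and 36 for GATA genes, against 66.0 for all genes with one. The tallest end peak was at least 1.5 kb wide at 14 forkhead genes of 39 and at 6 Sox genes of 19, and at no Pax or GATA gene. Of all genes with an end peak 8.48% had one that wide. Peaks covered at least 40% of 13 forkhead genes and of 6 Sox genes, and of no Pax or GATA gene, against 417 of 21883 protein-coding genes. Median gene lengths were 5.19 kb for forkhead, 4.79 kb for Sox, 55.05 kb for Pax and 24.1 kb for GATA genes. Pax and GATA genes were thus the longer ones and had the lower median pileups. Within the forkhead family the median width was 1266 bp at genes up to 6 kb and 1214.5 bp at longer ones. The part of length in these values was not tested.

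Genes that act with forkhead factors had peaks at their ends with 1 exception, and each of the 4 lists had a higher median pileup than the forkhead family. Against the all-gene median of 66.0 the Nodal and SMAD list, at 64, was lower and the other lists were higher. In the pathway from insulin to FOXO 16 of 17 genes had an end peak, with a median pileup of 84. Mtor and Pik3ca, kinases of the pathway, had 117 each, and the receptors Igf1r and Insr had 96 and 55. Sgk1, a kinase that also acts on FOXO proteins, had 32 at its ends, 11 body peaks and a tallest body peak of 102. All 9 genes of Nodal and SMAD signalling had one, with a median of 64, from 25 at the receptor Acvr1c to 128 at the receptor Acvr2b. Nodal itself had 64 with a fold of 3.27. All 10 cell cycle partners of Foxm1 had one (median 100.0), led by Lin52 with 199 and Mybl2 with 163. All 6 partners of the FOXK proteins had one (median 90.5), from X-linked Ogt with 24 to Asxl2 with 149. The share of all protein-coding genes with an end peak was 66.5%.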

How the data were processed

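The peak list of the untreated NSD1-dTAG cells was analysed. Titles gave the groups, since 2 treatment labels (1 and 24 h) state 6 h. The submitters' processing notes list the builds mm10 and GRCm38.p6 and the tools MACS2 2.2.6, deepTools 3.2.1, SAMtools 1.9, bcl2fastq 2.20.0.422 and Bowtie2 2.3.4.1. Read filters and a Tn5 shift were not stated there or in the labels. The deposited list holds an integer score, the authors' -log10 q times 10 rounded down in 100% of peaks, a fold enrichment ratio, and the authors' -log10 p and -log10 q (lowest 1.3). The p-value and q-value columns are those of the authors' peak caller. No total read count was given, so depth was recovered at each summit from the fold and the Poisson p, which gave whole pileups for 77626 of 77629 peaks (tolerance 0.01) and for all peaks used.

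Genes came from RefSeq (GRCm38.p6), without strand for members that have no listed promoter, and a gene listed on X and Y was counted once. A peak counted in a zone with 1 bp of overlap, at gene ends before bodies and bodies before elsewhere. The functions were checked on made-up peaks with known answers. Members and lists were chosen with earlier results of these data known. Every member is counted, and 1 member is not reported by name or drawn in the plots by gene; positions or intervals are given mainly for the 3 tallest, the lowest, the tallest of each role list, and members whose body or outside peak is at least 2 times as tall. No p-value was computed, as 1 library allows none. Alternatives varied the q threshold, pileup minimum, windows, overlap rule, ends, radius and measure of height. Scripts used scipy 1.17.1, pandas 2.3.3, matplotlib 3.10.9 and numpy 2.4.6 under Python 3.11.15.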

Additional observations from a re-analysis of the deposited data

Results flagged for a closer look

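Genes named after forkhead members but not coding for protein lay outside the comparisons, and 2 of the 3 had a signal. The antisense transcript Foxd2os had an end pileup of 91 (73.3 to 112) and Foxl2os one of 46 (33.7 to 61.4), both above the 3 counts that a count of 0 allows. Each of these peaks was also the end peak of its partner, Foxd2 or Foxl2, so the list cannot assign it to either. Foxo6os had no end or body peak and 5 peaks elsewhere within 50 kb.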

How the results depend on the processing

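The count of forkhead genes with an end peak lay between 36 and 40 of 44 under the other q threshold, pileup minimum, windows and overlap rule. With listed starts as the only ends it was 23 of the 28 members that have one. Both the set of genes and the definition of an end differ there. With a pileup of at least 20 required, 2 members, Foxi2 and Foxp2, had no peak in any zone, where none did in the report. The median end height was 8.25 by fold in place of 45 by pileup, a different scale. The share of all protein-coding genes with an end peak was 64.4% at a -log10 q of at least 5, 60.4% at a pileup of at least 20, 62.7% and 72.4% with windows of 500 and 2500 bp, 63.5% with the summit in the zone and 71.1% without olfactory and vomeronasal receptors. Foxl1 lost its end peak under 4 of these settings, Foxn1 under 2, and Foxi2, Foxp2, Foxc2, Foxl2 and Foxn3 under 1 each. Foxa1 gained one with windows of 2500 bp and Foxr2 with listed starts. Of the other tallest end pileups, 6 moved: Foxo3 to 44 with the summit in the zone, against 126; Foxq1 to 20 with windows of 500 bp, against 60; Foxk1 to 98, Foxl1 to 50 and Foxp4 to 88 with windows of 2500 bp, against 51, 16 and 60; and Foxp1 to 69 with listed starts, against 32. The median number of peaks elsewhere per member was 5, and 3 at a pileup of at least 20, 3 within 20 kb and 9 within 100 kb. The causes were not tested. Median width and the median share of short genes under peaks, with alternatives chosen after seeing the data, stayed within 1.5 times their values. At the lowest listed pileup of 6, sites below it were not detectable. No paired analysis was possible because 1 library was analysed.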
